A study of Mus musculus with 8 samples.

Results

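Cyp4 genes encode cytochrome P450 enzymes that hydroxylate fatty acids, and 10 of them were followed here in the livers of mice with and without a myeloid deletion of FoxO1. They were taken by gene symbol, as Cyp4a10, Cyp4a12a, Cyp4a12b, Cyp4a14, Cyp4a31, Cyp4a32, Cyp4f13, Cyp4f14, Cyp4f15 and Cyp4v3, out of 46517 genes in the count table. All 10 genes were among the 13278 genes with enough counts to be tested. Polyadenylated RNA of whole liver was sequenced in 8 male mice, 4 of them MøFoxO1-KO (replicates 26, 27, 28 and 29) and 4 WT littermates (replicates 22, 23, 24 and 25). The mice were on the C57BL/6 background, ate a diet that induces NASH from the age of 6 weeks, and were studied at 31 weeks, that is, after 25 weeks of diet and a 16-hour fast. MøFoxO1-KO mice carried FoxO1 loxP/loxP together with Lyz2-Cre, in which the lysozyme 2 promoter drives Cre in myeloid cells. The WT littermates also carried FoxO1 loxP/loxP and lacked Cre, so the floxed alleles were present in all 8 mice. Hepatocytes, the main source of Cyp4 transcripts in liver, were not the cells in which Cre is driven.

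The CYP4 family is best known for ω-hydroxylation, in which oxygen is placed on the last carbon of a fatty acid chain. Alcohol and aldehyde dehydrogenases then turn the product into a dicarboxylic acid, which is shortened in peroxisomes. Cyp4a10 and Cyp4a14 are classical targets of the fatty acid receptor PPARα and are induced by fasting and by fibrates, while Cyp4a12 enzymes are enriched in males and make 20-HETE from arachidonic acid. Cyp4f enzymes act on long-chain fatty acids and on leukotrienes, and Cyp4v3 is the mouse counterpart of the human ω-hydroxylase CYP4V2.

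The 6 Cyp4a genes lay next to each other on chromosome 4 of GRCm38. Their order was Cyp4a12a (chr4:115299046-115332815, plus strand), Cyp4a12b (chr4:115411624-115439034, plus), Cyp4a14 (chr4:115486200-115496142, minus), Cyp4a10 (chr4:115518264-115533649, plus), Cyp4a31 (chr4:115563649-115579015, plus) and Cyp4a32 (chr4:115600969-115621602, plus). The 3 Cyp4f genes lay on chromosome 17, with Cyp4f15 (chr17:32685627-32703352, plus), Cyp4f14 (chr17:32905071-32917342, minus) and Cyp4f13 (chr17:32924688-32947402, minus). Cyp4v3 stood alone on chromosome 8 (chr8:45269671-45333216, minus).

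All 10 genes encode the loop that holds the heme, where a cysteine binds the iron of every P450. The 30 coding bases around that cysteine are shown from GENCODE M21 transcripts, 5′ to 3′, to show how far the subfamilies differ, with the cysteine codon in capitals. In each gene an intron interrupts this stretch.
Cyp4a10, Cyp4a31 and Cyp4a32: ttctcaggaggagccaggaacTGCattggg
Cyp4a12a and Cyp4a12b: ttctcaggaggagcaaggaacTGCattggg
Cyp4a14: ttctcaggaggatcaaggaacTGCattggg
Cyp4f13: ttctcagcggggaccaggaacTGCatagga
Cyp4f14: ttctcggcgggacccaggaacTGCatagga
Cyp4f15: ttctccgctgggcccaggaacTGCatagga
Cyp4v3: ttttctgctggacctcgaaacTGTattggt
Against Cyp4a10, this stretch differed at 1 base in Cyp4a12a and Cyp4a12b, at 2 in Cyp4a14, at 6 in Cyp4f13 and Cyp4f14, at 7 in Cyp4f15 and at 10 in Cyp4v3.

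Several members were near-identical copies, which bears on the counts of those genes. Over the whole coding region, Cyp4a12a and Cyp4a12b were 98.5% identical, with 23 mismatches. Cyp4a10 was 97.2% identical to Cyp4a32 and 96.6% identical to Cyp4a31. Cyp4a14 was 75.5% identical to Cyp4a10. Among the Cyp4f genes, Cyp4f14 and Cyp4f15 were 80.01% identical and Cyp4f13 and Cyp4f15 were 74.3% identical. Cyp4v3 was the most distant member, with 50.1 to 52.3% identity to the other 9 genes.

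**Figure D1:**
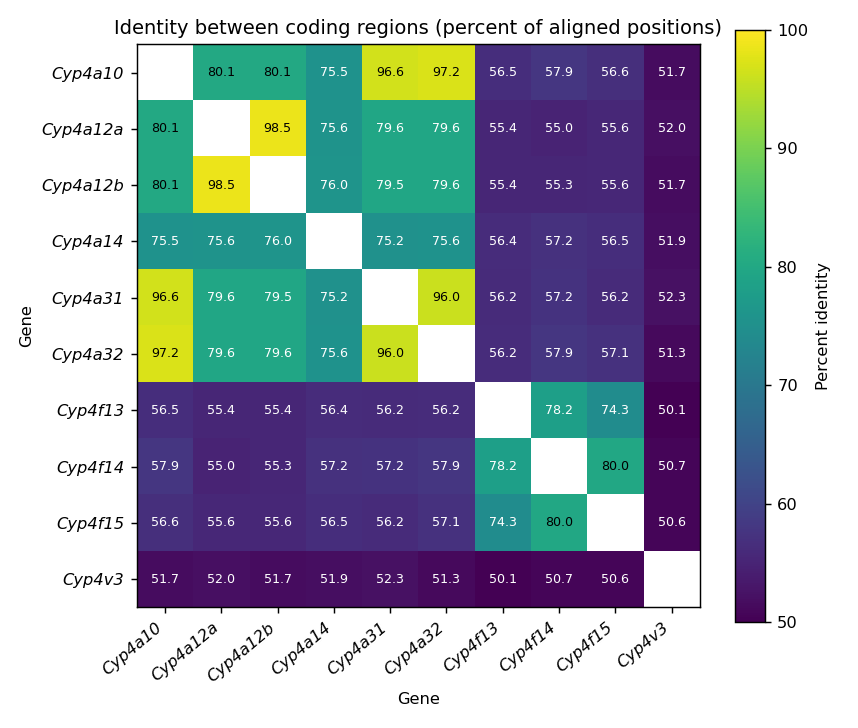
Identity between the coding regions of each pair of the 10 Cyp4 genes, in percent of aligned positions, as a color scale and as printed values. The Cyp4a12a and Cyp4a12b pair (98.5%) and the Cyp4a10, Cyp4a31 and Cyp4a32 trio (96.0 to 97.2%) stand out from all other pairs, none of which exceeds 80.1%.

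How far reads can tell the copies apart was measured as the share of each gene's 100-base words that also occur in another gene's transcripts. For Cyp4a12a this share was 35.8% and for Cyp4a12b it was 36.2%, in each case with the other gene. It was 18.2% for Cyp4a32, 12.2% for Cyp4a10 and 7.33% for Cyp4a31. For Cyp4a14, Cyp4f13, Cyp4f14 and Cyp4f15 no word was shared. Cyp4v3 shared 5.77% of its words with Gm45753, and 2267 of its 6246 counted exon bases (36.3%) are also exons of Gm45753. How reads that match several genes were counted is not given in the sources used here, so the values of the copies and of Cyp4v3 are uncertain to this extent.

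The positions that separate the copies are shown in 60-base stretches of coding sequence within 1 exon (GENCODE M21 on GRCm38), with capitals at bases that differ among the copies of a set. For each set the stretch with the most differing bases was taken. Coding positions 631 to 690 of the Cyp4a12 pair held 4 differences.
Cyp4a12a (chr4:115326629-115326688, plus): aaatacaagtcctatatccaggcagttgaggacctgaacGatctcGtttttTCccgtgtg
Cyp4a12b (chr4:115432882-115432941, plus): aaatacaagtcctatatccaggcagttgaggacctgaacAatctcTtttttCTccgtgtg
Coding positions 202 to 261 of Cyp4a10, Cyp4a31 and Cyp4a32 held 9 differences, most of which set only Cyp4a32 apart. Cyp4a10 and Cyp4a31 differed only at a base that read G and A, respectively, and at another that read A and C.
Cyp4a10 (chr4:115519642-115519701, plus): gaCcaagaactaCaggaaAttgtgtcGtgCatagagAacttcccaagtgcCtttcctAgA
Cyp4a31 (chr4:115565022-115565081, plus): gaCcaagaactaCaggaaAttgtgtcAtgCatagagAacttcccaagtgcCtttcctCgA
Cyp4a32 (chr4:115602272-115602331, plus): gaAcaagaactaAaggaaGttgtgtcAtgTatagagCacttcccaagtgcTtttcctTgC
Reads that cover a differing base can be assigned between the copies which that base separates, whereas the longest identical run of the Cyp4a12 pair spanned 342 coding bases.

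Values below are normalized counts, that is, counts of a mouse divided by its library size after TMM scaling and multiplied by the average size over all 8 libraries. Library totals lay between 15253218 and 18025481 counts, and mitochondrial genes took 4.16 to 6.33% of them. Foxo1 itself was at 404 ± 73.9 normalized counts in WT livers and 359 ± 73.4 in MøFoxO1-KO livers (SD, n = 4 each), with overlapping groups (log2 fold change -0.17, edgeR adjusted P = 0.686). Whole liver RNA does not separate myeloid Foxo1 from that of other cells. It also cannot tell fewer cells of a type from less RNA per cell. P values set the difference between the groups against the spread between these mice.

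At an adjusted P under 0.05, the quasi-likelihood test of edgeR, with Benjamini-Hochberg adjustment over all tested genes, called none of the 10 Cyp4 genes, where it called 0.294% of all tested genes (39 genes). With the added limit of an absolute log2 fold change over 1.5, it called none of the 10 and 0.188% of all genes. At an unadjusted P under 0.05, 5 members were higher in MøFoxO1-KO livers (Cyp4a12b, Cyp4a32, Cyp4f13, Cyp4f14 and Cyp4f15), against 8.65% of all tested genes that were higher. None of the 10 was lower at that threshold, against 8.06% of all tested genes. All adjusted P values given are Benjamini-Hochberg values over the 13278 tested genes. In either direction the unadjusted threshold was passed by 16.7% of all genes. By sign alone, 7 members had a higher and 3 a lower estimate in MøFoxO1-KO livers, and the median log2 fold change of the 10 was 0.34, beside -0.01 over all tested genes.

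The choice of tool changed the calls. DESeq2 with Benjamini-Hochberg adjustment called 4.41% of all tested genes at an adjusted P under 0.05, and 3 members were among them, Cyp4a12b, Cyp4a32 and Cyp4f15. All 3 were higher in MøFoxO1-KO livers, in a direction that held 2.58% of all genes, and no member was among the 1.84% called lower. By limma-voom, no member was called, beside 0.181% of all genes.

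**Figure D2:**
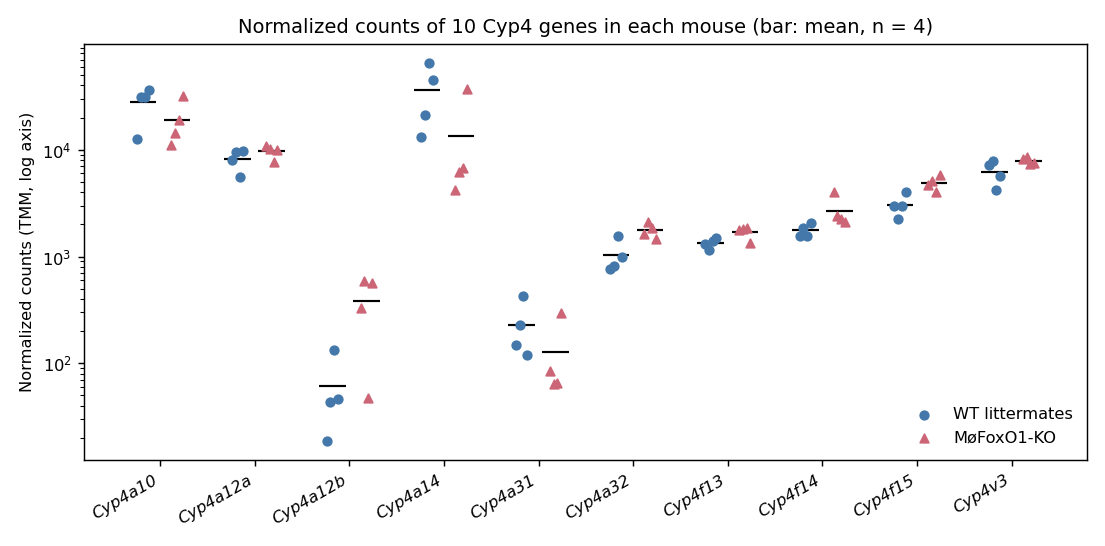
Normalized counts (TMM, log axis) of each Cyp4 gene in each of 4 WT livers (circles) and 4 MøFoxO1-KO livers (triangles), with bars at the group means. For Cyp4a14, 3 MøFoxO1-KO livers sit between 4224 and 6676 and the other at 36780, and for Cyp4f14 the lowest MøFoxO1-KO liver (2101) is just above the highest WT liver (2061).

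**Figure D3:**
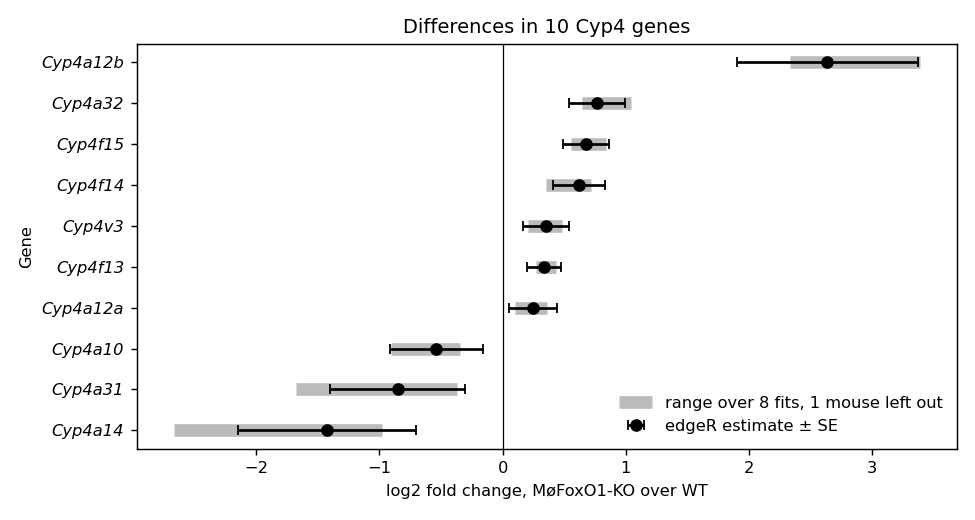
Log2 fold change of each Cyp4 gene, MøFoxO1-KO over WT, as the edgeR estimate ± SE (points and bars), with the range over 8 fits that each leave out 1 mouse (grey). Each SE was derived from the F statistic of the test. Estimates run from 2.63 for Cyp4a12b to -1.43 for Cyp4a14, and no grey range crosses 0.

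Cyp4a14 (ENSMUSG00000028715), which is strongly induced by PPARα ligands in mouse liver, had 13230, 21200, 65100 and 45260 normalized counts in WT replicates 22 to 25. In MøFoxO1-KO replicates 26 to 29 it had 4224, 6238, 6676 and 36780. Thus 3 of the 4 MøFoxO1-KO livers were below every WT liver, while replicate 29 was above 2 of the 4. The group means were 36200 ± 23590 in WT livers and 13480 ± 15570 in MøFoxO1-KO livers (SD, n = 4 each). Cyp4a14 had a log2 fold change of -1.43 with an SE of 0.72 (edgeR adjusted P = 0.356), and leaving out each mouse in turn gave values from -2.66 to -0.98. The value of -2.66 was the one without MøFoxO1-KO replicate 29, with an adjusted P of 0.0972 by edgeR.

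Cyp4a10 (ENSMUSG00000066072), the other classical PPARα-inducible ω-hydroxylase of the locus, had 12530, 30920, 31350 and 36120 normalized counts in WT replicates 22 to 25. The MøFoxO1-KO livers had 11060, 14410, 19010 and 32000 in replicates 26 to 29. WT replicate 22 was as low as the lower MøFoxO1-KO livers and MøFoxO1-KO replicate 29 as high as the other WT livers, so the groups overlapped. Means were 27730 ± 10400 and 19120 ± 9185 (SD, n = 4 each). Its log2 fold change was -0.54 with an SE of 0.37 (edgeR adjusted P = 0.512). Over the 8 fits with a mouse left out, the lowest value was -0.90 (MøFoxO1-KO replicate 29 left out) and the highest was -0.35 (MøFoxO1-KO replicate 26 left out), with adjusted P values of 0.363 and 0.678 by edgeR.

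Cyp4a31 (ENSMUSG00000028712), a near copy of Cyp4a10, was among the low members. Its normalized counts were 147, 226, 426 and 119 in WT replicates 22 to 25 and 85.3, 64.5, 65.5 and 294 in MøFoxO1-KO replicates 26 to 29. As for Cyp4a14, replicate 29 stood among the WT livers and the other 3 MøFoxO1-KO livers were below all of them. The log2 fold change was -0.85 with an SE of 0.55 (edgeR adjusted P = 0.473) and ranged from -1.67 without replicate 29 to -0.37 without WT replicate 24 (edgeR adjusted P = 0.202 and 0.768). Over the 8 livers, the log2 levels of Cyp4a14 and Cyp4a10 had a Pearson r of 0.87, and those of Cyp4a14 and Cyp4a31 one of 0.83. Within groups, that is, after the group means were taken out, the same pairs had r of 0.86 and 0.76. These correlations describe 8 livers whose values share libraries and scaling.

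Cyp4a32 (ENSMUSG00000063929), the third near-identical gene of this set, had a higher mean in MøFoxO1-KO livers. It had 766, 809, 1570 and 985 normalized counts in WT replicates 22 to 25 and 1623, 2084, 1861 and 1446 in MøFoxO1-KO replicates 26 to 29. All but 1 MøFoxO1-KO liver were above every WT liver, the exception being replicate 29, which was below WT replicate 24. Means were 1033 ± 370 and 1754 ± 278 (SD, n = 4 each), a ratio of 1.70. The log2 fold change was 0.76 with an SE of 0.23 (edgeR adjusted P = 0.164; DESeq2 adjusted P = 0.0330), and it stayed between 0.64 and 1.04 when each mouse was left out. Of the counts on Cyp4a10, Cyp4a31 and Cyp4a32 together, Cyp4a32 held 5.70, 2.53, 4.71 and 2.65% in the WT livers. It held 12.7, 12.6, 8.89 and 4.29% in the MøFoxO1-KO livers, so that only replicate 29 lay within the WT range. With the counts of the 3 genes summed before the fit, the log2 fold change was -0.46 (edgeR adjusted P = 0.552), which follows the more abundant Cyp4a10.

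The Cyp4a12 pair differed in level by far. Cyp4a12a (ENSMUSG00000066071), the main male 20-HETE synthase, had 7987, 9484, 5522 and 9696 normalized counts in WT replicates 22 to 25 and 10930, 10210, 7702 and 9968 in MøFoxO1-KO replicates 26 to 29. The groups overlapped, with means of 8172 ± 1923 and 9703 ± 1396 (SD, n = 4 each). Its log2 fold change was 0.25 with an SE of 0.19 (edgeR adjusted P = 0.562), and 0.10 without WT replicate 24. Scaling by total counts in place of TMM, an alternative chosen after the data were seen, also gave 0.10. That scaling moved the median of all tested genes by -0.15 on the log2 scale, and Cyp4a12a moved by as much. In TPM the mean of Cyp4a12a was slightly lower in MøFoxO1-KO livers, at 416 ± 58.0 against 432 ± 88.8 (SD, n = 4 each), so its direction depended on the scale.

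Cyp4a12b (ENSMUSG00000078597) had 18.7, 43.3, 135 and 46.8 normalized counts in WT replicates 22 to 25. In MøFoxO1-KO replicates 26 to 29 it had 331, 584, 47.5 and 561. Of the MøFoxO1-KO livers, 3 were well above all WT livers and replicate 28 was at the level of WT replicates 23 and 25. Means were 60.9 ± 50.8 and 381 ± 250 (SD, n = 4 each), a ratio of 6.25, the largest of the 10 genes. This gave a log2 fold change of 2.63 with an SE of 0.73 (edgeR adjusted P = 0.145; DESeq2 adjusted P = 0.0437; limma-voom adjusted P = 0.308). Without replicate 28 it was 3.02, with an adjusted P of 0.0385 by edgeR.

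The share of Cyp4a12b in the counts of the Cyp4a12 pair was 0.234, 0.454, 2.38 and 0.480% in the WT livers and 2.94, 5.41, 0.612 and 5.33% in the MøFoxO1-KO livers. Whether reads of Cyp4a12a were counted on Cyp4a12b was not tested. With the pair summed before the fit, the log2 fold change was 0.29 (edgeR adjusted P = 0.486).

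The 3 Cyp4f genes, which share no 100-base word with another gene, all had higher means in MøFoxO1-KO livers. Cyp4f15 (ENSMUSG00000073424), the most abundant of them, had 2992, 2266, 2977 and 4035 normalized counts in WT replicates 22 to 25 and 4681, 5109, 3993 and 5851 in MøFoxO1-KO replicates 26 to 29. The groups touched only where WT replicate 25 was just above MøFoxO1-KO replicate 28. Means were 3068 ± 728 and 4909 ± 779 (SD, n = 4 each), a ratio of 1.6. Its log2 fold change was 0.68 with an SE of 0.19 (edgeR adjusted P = 0.144; DESeq2 adjusted P = 0.0193), and the values with each mouse left out ran from 0.56 to 0.84.

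Cyp4f14 (ENSMUSG00000024292), the leukotriene B4 ω-hydroxylase of mouse liver, had 1548, 1846, 1563 and 2061 normalized counts in WT replicates 22 to 25. The MøFoxO1-KO replicates 26 to 29 had 4027, 2396, 2245 and 2101. It was the only member with every MøFoxO1-KO liver above every WT liver, a pattern found in 5.0% of all tested genes. No member had every MøFoxO1-KO liver below every WT liver, beside 4.71% of all genes. The separation of Cyp4f14 was narrow, at 2101 against 2061, and it was gone on the scale of TPM, that is, counts per exon length. Means were 1755 ± 246 and 2692 ± 898 (SD, n = 4 each), and the large spread came from replicate 26. The log2 fold change was 0.62 with an SE of 0.21 (edgeR adjusted P = 0.204), and 0.36 without MøFoxO1-KO replicate 26.

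Cyp4f13 (ENSMUSG00000024055), a less studied liver member of the subfamily, had the smallest SE of the 10 log2 fold changes. It had 1305, 1148, 1393 and 1487 normalized counts in WT replicates 22 to 25 and 1757, 1800, 1838 and 1336 in MøFoxO1-KO replicates 26 to 29. Replicate 29 was within the WT range and the other 3 MøFoxO1-KO livers were above it. The log2 fold change was 0.34 with an SE of 0.14 (edgeR adjusted P = 0.259). With total-count scaling it was 0.18 (edgeR adjusted P = 0.522), and mean TPM were 51.5 ± 5.30 in WT and 52.8 ± 9.67 in MøFoxO1-KO livers (SD, n = 4 each). Its unadjusted P was under 0.05 in 3 of the 8 fits that left out a mouse, whereas that of Cyp4a12b, Cyp4a32, Cyp4f14 and Cyp4f15 was under 0.05 in all 8.

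Cyp4v3 (ENSMUSG00000079057) had 7152, 7782, 4236 and 5654 normalized counts in WT replicates 22 to 25 and 8275, 8579, 7412 and 7446 in MøFoxO1-KO replicates 26 to 29. The groups overlapped, since WT replicate 23 was above 2 MøFoxO1-KO livers. Means were 6206 ± 1588 and 7928 ± 590 (SD, n = 4 each). Cyp4v3 had a log2 fold change of 0.35 with an SE of 0.18 (edgeR adjusted P = 0.370). Both the fit that left out WT replicate 24 and the fit with total-count scaling gave 0.21. The exons that its row shares with Gm45753 limit what this value says of Cyp4v3 alone.

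To compare levels between the genes, counts were divided by the exon length of each gene and scaled to the same total in every liver (TPM). The row of Cyp4a32 holds 1536 exon bases, of which 1530 are coding, so its level per length rests on the coding region alone. In WT livers, Cyp4a14 (1815 ± 1254 TPM) and Cyp4a10 (1698 ± 638) led and did not differ beyond their spread. Cyp4a12a followed at 432 ± 88.8 and was separate from the genes on either side in every liver. Next were Cyp4f15 (172 ± 33.3), Cyp4v3 (128 ± 32.5), Cyp4f14 (93.7 ± 10.4) and Cyp4a32 (87.6 ± 36.4), whose neighbours overlapped. Cyp4f13 at 51.5 ± 5.30 was below all of these and above Cyp4a31 at 12.1 ± 8.03. Cyp4a12b was the lowest at 3.37 ± 3.01 and overlapped with Cyp4a31 across mice (SD, n = 4 throughout).

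In MøFoxO1-KO livers the order at the top was Cyp4a10 (934 ± 419 TPM), Cyp4a14 (523 ± 583) and Cyp4a12a (416 ± 58.0), and the ranges of neighbours overlapped. Cyp4a10 was above Cyp4a14 in all 4 MøFoxO1-KO livers, and Cyp4a14 was above Cyp4a12a in 1 of them, replicate 29. Cyp4f15 (222 ± 23.8) was separate from Cyp4a12a above it and from Cyp4v3 (132 ± 11.3) below it. Cyp4v3, Cyp4a32 (119 ± 19.1) and Cyp4f14 (118 ± 44.7) overlapped, and Cyp4f13 (52.8 ± 9.67) was below them. Cyp4a12b (16.0 ± 9.95) and Cyp4a31 (5.17 ± 4.30) were the lowest and overlapped.

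The 10 genes together amounted to 2301, 4070, 6430 and 5167 TPM in WT replicates 22 to 25 and 1995, 1947, 2285 and 3921 in MøFoxO1-KO replicates 26 to 29. In TPM, 3 MøFoxO1-KO livers were below every WT liver, replicate 28 only narrowly, and replicate 29 was above WT replicate 22. This depended on the scale. As a share of all raw counts, the 10 genes held 0.3115% in replicate 28, above the 0.3049% of WT replicate 22. Replicates 26 (0.272%) and 27 (0.2826%) were below every WT liver on both scales. Cyp4a10 and Cyp4a14 made up 59.99, 74.3, 85.8 and 79.9% of the summed TPM in the WT livers and 37.8, 45.7, 56.7 and 73.7% in the MøFoxO1-KO livers. Of the MøFoxO1-KO livers, only replicate 29 lay within the WT range. The ratio of Cyp4a14 to Cyp4a10 counts was 1.06, 0.686, 2.08 and 1.25 in WT livers and 0.382, 0.433, 0.351 and 1.15 in MøFoxO1-KO livers.

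**Figure D4:**
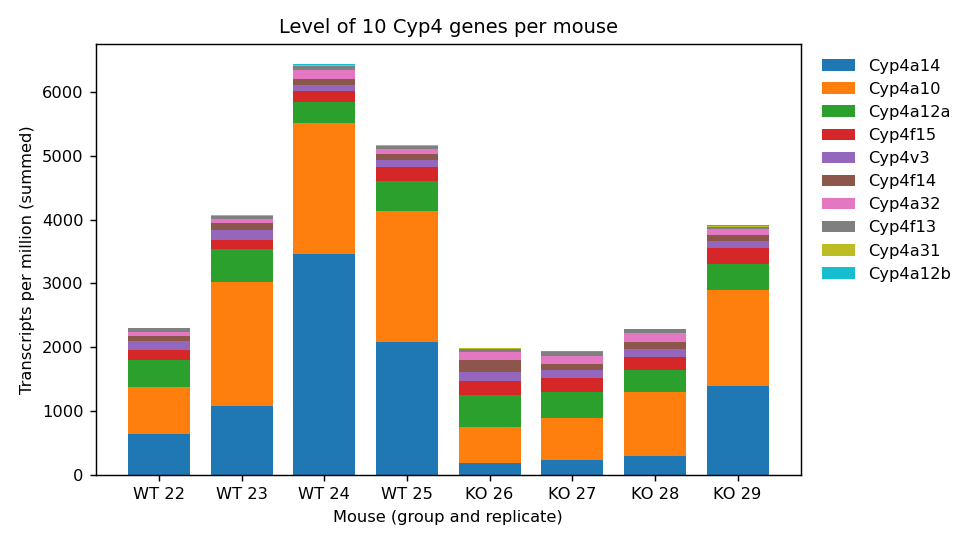
Level of the 10 Cyp4 genes in each liver in TPM, stacked by gene. Cyp4a14 and Cyp4a10 form 59.99 to 85.8% of each WT bar. The MøFoxO1-KO bars of replicates 26, 27 and 28 (1947 to 2285) are lower than every WT bar, while that of replicate 29 (3921) is not. Replicate 28 (2285) is only just below WT replicate 22 (2301), and is above it as a share of all raw counts.

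For a member of each pattern, the 3 other genes with the most similar log2 level over the 8 livers were found among all tested genes. For Cyp4a14 these were Ccdc71l (Pearson r = 0.96), Slc24a3 (r = 0.95) and Zfp383 (r = 0.94). For Cyp4a12a they were Setmar (r = 0.97), Pih1d2 (r = 0.97) and Slc27a5 (r = 0.96), the last a bile acid and fatty acid CoA ligase of hepatocytes. For Cyp4f14 they were Dusp19 (r = 0.96), Shroom1 (r = 0.94) and Ercc8 (r = 0.94). Each is the highest of the values of all tested genes over 8 livers that share their libraries, and is given as a description.

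Of 12 other Cyp4 genes that were listed, 4 had enough counts to be tested and none passed the adjusted threshold by edgeR, DESeq2 or limma-voom, nor an unadjusted P under 0.05 by edgeR. They were Cyp4f16 (log2 fold change 0.76), Cyp4f17 (0.18), Cyp4b1 (-0.30) and Cyp4f18 (-0.50), with adjusted P values from 0.391 to 0.734 by edgeR. Cyp4f18, a leukotriene hydroxylase of myeloid cells, averaged 20.5 ± 13.0 normalized counts in WT livers and 14.5 ± 1.96 in MøFoxO1-KO livers (SD, n = 4 each). Cyp4a28-ps, Cyp4a29, Cyp4a30b and Cyp4x1 had no count in any of the 8 livers.

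Among 37 tested PPARα target genes other than Cyp4, none passed the adjusted threshold by edgeR or by limma-voom. DESeq2 called 4 of them, all lower, a direction in which it called 1.84% of all tested genes. By edgeR, an unadjusted P under 0.05 was reached by 3 genes with higher and 8 with lower levels in MøFoxO1-KO livers. Over all tested genes these shares were 8.65% and 8.06%. Of the 37 genes, 12 had higher and 25 lower estimates, with a median log2 fold change of -0.14, beside -0.01 over all tested genes. The 3 with the smallest P were Aldh3a2, the fatty aldehyde dehydrogenase that acts after ω-hydroxylation (log2 fold change -0.64, adjusted P = 0.131), Slc27a1, a fatty acid transporter (-0.96, adjusted P = 0.147), and Acot2, a mitochondrial acyl-CoA thioesterase (-1.12, adjusted P = 0.149). Aldh3a2 was lower in every MøFoxO1-KO liver than in every WT liver, with means of 10150 ± 1465 and 15790 ± 2997 normalized counts (SD, n = 4 each). This pattern was found in 4 of the 37 genes and in 4.71% of all tested genes, and the opposite one in 4 and in 5.0%.

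Partners of ω-oxidation, from the electron donors of P450 to the peroxisomal enzymes that shorten dicarboxylic acids, numbered 28 tested genes. None of them passed the adjusted threshold by edgeR or limma-voom. DESeq2 called Adh4 higher and Aldh3a2 lower, beside 2.58% and 1.84% of all tested genes. At an unadjusted P under 0.05, 3 were higher and 5 lower by edgeR, beside 8.65% and 8.06% of all tested genes. The median log2 fold change was -0.05, beside -0.01 over all tested genes. This list shares 10 genes with the PPARα list. Por, which passes electrons to all microsomal P450 enzymes, had a log2 fold change of 0.28 (adjusted P = 0.374 by edgeR). Every MøFoxO1-KO liver was above every WT liver for 2 partners and below for 5, beside 5.0% and 4.71% of all tested genes. Adh4, an alcohol dehydrogenase of ω-hydroxy fatty acids, was above (log2 fold change 0.43, adjusted P = 0.171 by edgeR). Its separation was narrow, at 1897 against 1863 normalized counts, and was gone in TPM. Abcd2, a peroxisomal fatty acyl-CoA transporter, was below (-2.53, adjusted P = 0.145 by edgeR). Its normalized counts were 20.1, 20.3, 24.7 and 195 in MøFoxO1-KO replicates 26 to 29, and the lowest WT value was 228.

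None of 23 tested regulators of Cyp4 genes passed the adjusted threshold by edgeR or limma-voom. DESeq2 called 1 of them, Stat5a (lower), beside 1.84% of all tested genes called lower. By edgeR, 5 were lower and 0 higher at an unadjusted P under 0.05, beside 8.06% and 8.65% of all tested genes. The median log2 fold change was -0.26, beside -0.01 over all tested genes. Ppara had a log2 fold change of -0.26 (adjusted P = 0.540) and its partner Rxra one of -0.17 (adjusted P = 0.527). Of the growth hormone pathway that sets sex differences in liver, Stat5b had -0.31 (adjusted P = 0.315), Stat5a -0.79 (adjusted P = 0.0851) and the receptor Ghr 0.20 (adjusted P = 0.670). Pparg, the adipogenic PPAR, had -2.14 (adjusted P = 0.181), all by edgeR.

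Cyp4a12a and Cyp4a12b are male-enriched in mouse liver, and genes with the same property were set beside them. Of 17 tested male-biased genes, 16 had higher estimates in MøFoxO1-KO livers, 12 had every MøFoxO1-KO liver above every WT liver, and 5 passed the adjusted threshold by edgeR with Benjamini-Hochberg adjustment, all of them upward (Hsd3b5, Cyp7b1, Mup1, Mup12 and Susd4). The median log2 fold change was 2.07. For comparison, the log2 fold changes of Cyp4a12b and Cyp4a12a were 2.63 and 0.25, so the abundant gene of the pair was well below that median. All 11 tested female-biased genes had lower estimates, with a median of -1.53. In 5 of the 11 every MøFoxO1-KO liver was below every WT liver, beside 4.71% of all tested genes. At the adjusted threshold, edgeR called 3 lower (Cyp2a4, Cyp2a22 and Hao2), beside 0.294% of all tested genes in either direction. DESeq2 called 7 lower, beside 1.84% of all tested genes, and limma-voom called 2 lower. The authors had already reported Mup1, Mup7, Mup12 and Mup21 as higher in these same livers. They had reported Cyp2a4, Cyp2a22, Cyp2b9, Cyp2b13 and Cyp2c40 as lower. The counts and medians of both lists therefore rest partly on genes known to differ here, and are not an independent yardstick for the Cyp4a12 genes.

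**Figure D5:**
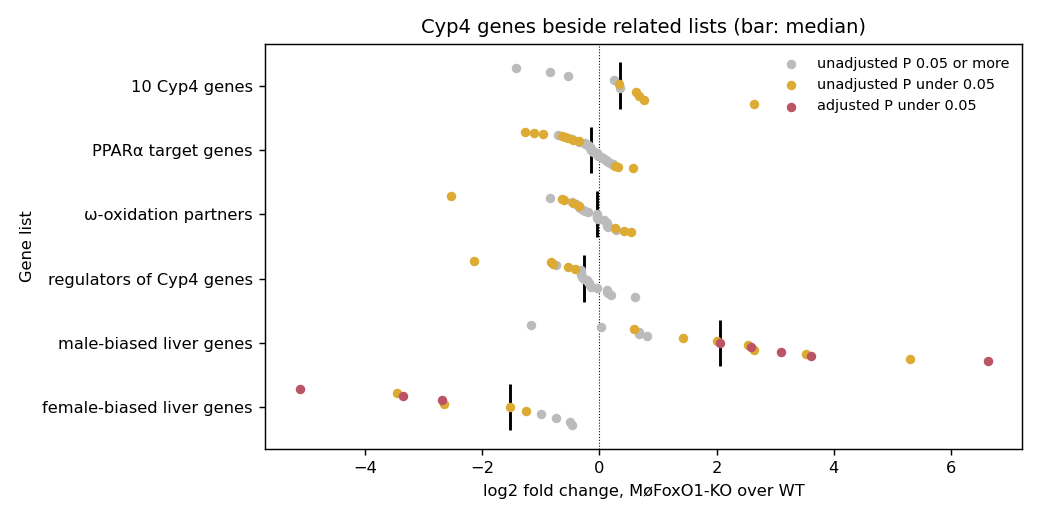
Log2 fold change, MøFoxO1-KO over WT, of each tested gene in the Cyp4 group and in 5 related lists, with a bar at each list's median and color by P value. The Cyp4 genes run from -1.43 to 2.63 around a median of 0.34, and the PPARα targets, partners and regulators have medians from -0.26 to -0.05. The male-biased and female-biased lists have medians of 2.07 and -1.53, and both include genes already reported to differ in these livers.

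Markers of liver cell types also varied between livers, and their part in the Cyp4 values was not tested. The summed level of 9 hepatocyte markers was 83470 to 103100 TPM in WT livers and 84030 to 109400 in MøFoxO1-KO livers. Of these sums, Alb alone held 40340 to 63090 and 36810 to 46420 TPM. Higher estimates were found for 8 of the 9. By edgeR, Serpina1c passed the adjusted threshold, beside 0.294% of all tested genes. DESeq2 called Serpina1c and Apoa1 higher, beside 2.58% of all tested genes. The 14 macrophage markers summed to 213 to 416 TPM in WT livers and 179 to 736 in MøFoxO1-KO livers, with the highest sum in replicate 29. Of these markers, 10 had higher and 4 lower estimates. By edgeR only Gpnmb passed the adjusted threshold, and it was lower (log2 fold change -4.13, adjusted P = 0.0382), beside 0.294% of all tested genes. DESeq2 called 2 higher and 2 lower, beside 2.58% and 1.84% of all tested genes. The 2 higher were Marco (log2 fold change 5.18, adjusted P = 0.0870 by edgeR) and Timd4 (2.08, adjusted P = 0.0968 by edgeR). The 2 lower were Gpnmb and Trem2 (-3.88, adjusted P = 0.0983 by edgeR). No macrophage marker was at 0 in all 8 livers. Adipocyte markers summed to 8.05 to 176 TPM in WT livers and 0.329 to 3.99 in MøFoxO1-KO livers, with Lep at 0 in all 8. Only Cidea of the 6 had enough counts to be tested, and it alone held 7.68 to 176 TPM in WT livers and 0 to 3.55 in MøFoxO1-KO livers. The WT sums thus rested almost wholly on Cidea, and they do not measure adipocytes. Which cells expressed Cidea was not tested. Neutrophil markers summed to at most 18.9 TPM in any liver, and cholangiocyte markers to 91.4 to 126 TPM in WT livers and 60.4 to 83.0 in MøFoxO1-KO livers, of which Spp1 alone held 81.9 to 118 and 55.1 to 78.0 TPM. Stellate and endothelial markers summed to 46.1 to 104 TPM and 61.9 to 105 TPM, respectively.

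By position in the liver lobule, 12 pericentral genes had a median log2 fold change of -0.05 and 10 periportal genes one of 0.10. Of the pericentral genes only Cyp2c38 passed the adjusted threshold by edgeR with Benjamini-Hochberg adjustment (log2 fold change -2.12, adjusted P = 0.0136), and no periportal gene did. Over all tested genes this share was 0.294%. DESeq2 called 2 pericentral genes lower, Cyp2c38 and Slc1a2, beside 1.84% of all tested genes. The authors had already reported Cyp2c38 as lower in these same livers.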

How the data were processed

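The authors deposited raw read counts per Ensembl gene, in the layout of featureCounts, with exon coordinates and lengths on GRCm38. Per the labels, STAR, featureCounts and mm10 were used. Strand setting, multi-mapping reads and versions are not given in the sources used here. Symbols came from GENCODE M21 (46005 of 46517 genes, and genes without a symbol held 0.0399% of counts). The 8 libraries held 15253218 to 18025481 counts each, which limits precision for low genes such as Cyp4a12b and Cyp4a31, and no pair of libraries was a duplicate. Listed symbols Cml5, Peci and Tf had no row.

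Counts were filtered with filterByExpr (minimum count 10, minimum total 15), scaled by TMM and tested with edgeR 4.0.16 (quasi-likelihood, no covariates, common biological coefficient of variation 0.256) in R 4.3.3, with Benjamini-Hochberg adjustment over 13278 genes. The SE of an edgeR log2 fold change was derived as its absolute value divided by the square root of the F statistic. Scripts were tested on simulated data. TPM were computed from the deposited counts and exon lengths. Correlations used log2 CPM plus 0.5. Alternatives were DESeq2 1.42.0, limma-voom (limma 3.58.1), other scalings, no filter, the robust option, summed copies and leaving out each mouse. Coding regions were aligned globally with Biopython 1.88. Named genes are the 10 members, Foxo1, tested other Cyp4 genes, chosen regulators, and per list the genes passing the adjusted threshold, in some lists with those of smallest P. Members and lists were chosen with earlier results of these data known. The values of 1 listed regulator are not reported here.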

Additional observations from a re-analysis of the deposited data

Results flagged for a closer look

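In 4 of the 20 groups of 4 mice (10 genes in 2 genotypes), 1 liver stood apart from the other 3 by Dixon's test, in which the gap to the nearest liver is divided by the whole range and compared with the critical value at 95%. Chance flags about 1 in 20 groups, and the 10 genes share the same livers. MøFoxO1-KO replicate 29 was the highest liver of its group for Cyp4a14 (gap of 0.925 of the range) and for Cyp4a31 (0.910), and it was the lowest for Cyp4f13 (0.838). MøFoxO1-KO replicate 26 was the highest liver for Cyp4f14 (0.847). Without replicate 29, the log2 fold change of Cyp4a14 was -2.66 in place of -1.43, that of Cyp4a31 was -1.67 in place of -0.85, and that of Cyp4f13 was 0.43 in place of 0.34. Without replicate 26, that of Cyp4f14 was 0.36 in place of 0.62.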

How the results depend on the processing

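Of 157 values of single genes under alternative settings, 152 kept their direction and their side of the adjusted threshold of 0.05, 5 passed it where the reported fit did not, and none reversed. The 5 were Cyp4a12b without a filter on low counts, by DESeq2 and without MøFoxO1-KO replicate 28, and Cyp4a32 and Cyp4f15 by DESeq2. The number of members called at that threshold (0) was thus 1 without the filter, 3 by DESeq2, and 0 to 1 when each mouse was left out. It stayed at 0 with the size factors of DESeq2, upper-quartile scaling, limma-voom, the robust option, summed copies, total counts, the fold limit, and an adjusted P under 0.1. The number higher at an unadjusted P under 0.05 (5) was 3 with the near-identical copies summed, where 7 genes remained, 4 with total counts, and 4 to 5 when each mouse was left out. The number lower (0) was 1, Cyp4a14, without the filter, by limma-voom, and with total counts, a setting added after the data were seen. It was 0 to 3 when each mouse was left out, with 2 (Cyp4a10 and Cyp4a14) without WT replicate 22 and 3 (with Cyp4a31) without MøFoxO1-KO replicate 29. No paired analysis was possible because the groups share no replicate numbers. Depth limits the low members, Cyp4a12b with raw counts from 20 to 501 and Cyp4a31 with 54 to 461.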
